A study of Mus musculus with 13 samples.

Results

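Aminoacyl-tRNA synthetases are the enzymes that attach each amino acid to its transfer RNA. The 36 mouse genes described here were taken from a list of such enzymes, by matching the Ensembl identifiers of the deposited table to GENCODE M21 symbols. All 36 were among the 13201 genes of the table, and all 36 were among the 12846 genes that passed the filter on low values (3 or more libraries with a normalized count of 10 or higher). They comprise 20 genes for cytosolic enzymes and 16 for mitochondrial ones. Gars and Kars, for glycine and lysine, encode both the cytosolic and the mitochondrial enzyme and are counted here as cytosolic.

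The libraries came from haematopoietic stem cells (HSCs), the self-renewing source of blood cells in bone marrow, sorted in lots of 100 cells and made into cDNA by Smart-seq2, a full-length protocol for small amounts of polyadenylated RNA. Wild-type (WT) mice gave 3 untreated libraries (D1, D2 and D3) and 4 after 5-fluorouracil (A2, A3, A4 and D4). Mice lacking MEK1 (KO), which Map2k1 encodes and which phosphorylates ERK, gave 3 untreated libraries (D4, D5 and D6) and 3 after 5-fluorouracil (A5, A6 and A8). 5-Fluorouracil (5-FU) is a drug that kills dividing blood cells. The sources used here do not give strain, age, how Map2k1 was deleted, or the dose and time of 5-FU. No label ties a library to an animal of its own. The p-values therefore measure only how far these libraries differ from each other, a spread that may be technical.

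In the cytosol, eukaryotic synthetases act alone or in the multisynthetase complex, an assembly of enzymes held together by the scaffold proteins Aimp1, Aimp2 and Eef1e1. Mitochondria translate their own genes and use a separate set of enzymes, most of them encoded by nuclear genes of their own. Many genes for cytosolic enzymes are known targets of ATF4, the transcription factor that is translated when eIF2 alpha is phosphorylated in amino acid shortage and other stress. ATF4 with a CCAAT-enhancer binding protein binds sites of the type TGATGNAA.

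Promoters were searched for that site because it is the known link between this family and ATF4. RefSeq promoters (GRCm38.p6, from 250 bases before to 50 after the start of the gene) were at hand for 26 of the 36 genes, 12 of them cytosolic. TGATGNAA, read on both strands, was found in 5 of these 12 (41.7%) and in 0 of 14 mitochondrial ones, beside 4.51% of all 27025 genes with a promoter and 2.74% of the 9505 that were tested. It occurred in Aars, Gars, Iars, Tars and Yars. These 5 were among 7 genes often listed as ATF4 targets, and 0 of 5 other cytosolic promoters held it. Such listings may rest in part on this same site, so list and site are not taken as independent for these 5 genes. A site of each gene is shown with 10 flanking bases on each side, on the strand of the gene and with the motif in capitals. In 4 of the 5 genes the capitals spell the reverse complement, and in Yars they spell the motif itself.
Aars, chr8:111033841-111033868, plus strand: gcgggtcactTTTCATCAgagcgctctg
Gars, chr6:55037961-55037988, plus strand: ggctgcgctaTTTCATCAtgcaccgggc
Iars, chr13:49682127-49682154, plus strand: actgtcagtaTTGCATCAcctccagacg
Tars, chr15:11399656-11399683, minus strand: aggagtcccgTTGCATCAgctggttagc
Yars, chr4:129189896-129189923, plus strand: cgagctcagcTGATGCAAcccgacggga

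The first base of the printed motif lay 30 bases before the start in Gars and 15 before it in Tars. In Aars it was the base at 10 after the start, in Iars the base at 8 and in Yars the base at 4. Aars held another TGATGNAA site, not printed, whose first base lay 112 bases before the start. The E-box CACGTG, a site bound by Myc, USF and TFE factors, was found in 4 of the 12 cytosolic promoters (Aars, Farsb, Iars and Tars) and in 1 of the 14 mitochondrial ones (Ears2), beside 8.09% of all promoters and 11.8% of those of tested genes. A match is a run of letters and not a measured binding site.

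In 12 libraries the recovered reads summed to between 11416753 and 25380570, and in untreated WT D1 to 45384866. Levels are given as normalized counts recovered from the deposited values, with the SD over the libraries of a group. Log2 differences were taken on the variance-stabilized scale as deposited, which shrinks the log2 folds of genes with low counts. Map2k1 measured 905, 1116 and 1766 in untreated WT, 611, 749.8 and 545 in untreated KO, 604, 1634, 584 and 1573 in 5-FU WT (libraries in the order above), and 328, 459.9 and 304 in 5-FU KO. It was lower in every KO library than in any WT library of the same treatment, and still detected. After 5-FU 13.8% of all genes tested were lower in this way. The Map2k1 difference was called after 5-FU (log2 -0.96, limma adjusted p = 0.0339) and not in untreated cells (log2 -0.69, limma adjusted p = 0.46). After 5-FU, WT D4 and A3 were nearly alike (Pearson r over genes 0.9877, beside 0.912 to 0.9767 for the other pairs of the same group), and the series design counts 1 technical replicate, under untreated WT. Whether D4 and A3 came from the same cells is not stated, and n = 4 below counts them separately. Library D4 of 5-FU WT was acquired in 2015 like the untreated libraries. It and untreated WT D1 were read on another flowcell than the remaining libraries, and both are meant where the other flowcell is named below. HSC markers were present in every group, with Procr, Slamf1 and Kit above 0 in every library, and their summed level over 10 genes was 22246 to 26814 in untreated WT, 18298 to 21420 in untreated KO, 12689.6 to 17804 in WT and 8460.5 to 8926 in KO after 5-FU.

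After 5-FU, genes for cytosolic synthetases were higher in KO than in WT HSCs, and those for mitochondrial synthetases on the whole were not. Of the 20 cytosolic genes 11 rose (Aars, Cars, Eprs, Farsa, Farsb, Iars, Kars, Nars, Rars, Wars and Yars) and of the 16 mitochondrial ones 1 rose (Yars2), while 0 fell (limma, Benjamini-Hochberg adjusted p under 0.05 over all genes tested). Among all genes tested 5.36% rose and 5.5% fell, and among genes with a mean level in the range of the cytosolic members 8.81% rose. At an unadjusted p under 0.05, 16 members were higher and 1 lower, beside 12.2% and 12.7% of all genes, and limma-voom on the recovered reads called 10 higher and 0 lower. In the level range of the mitochondrial members the share was 6.06%. All 20 cytosolic differences lay above 0, as 48.4% of all genes did, from 0.28 to 1.34, with a median of 0.67 on the log2 scale. The mitochondrial differences ran from -0.75 to 1.105 with a median of 0.06, 8 above 0 and 8 below, beside a median of -0.02 over all genes. The mitochondrial median was 0.29 in limma-voom and 0.25 under TMM scaling, each with 10 of 16 above 0.

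**Figure D1:**
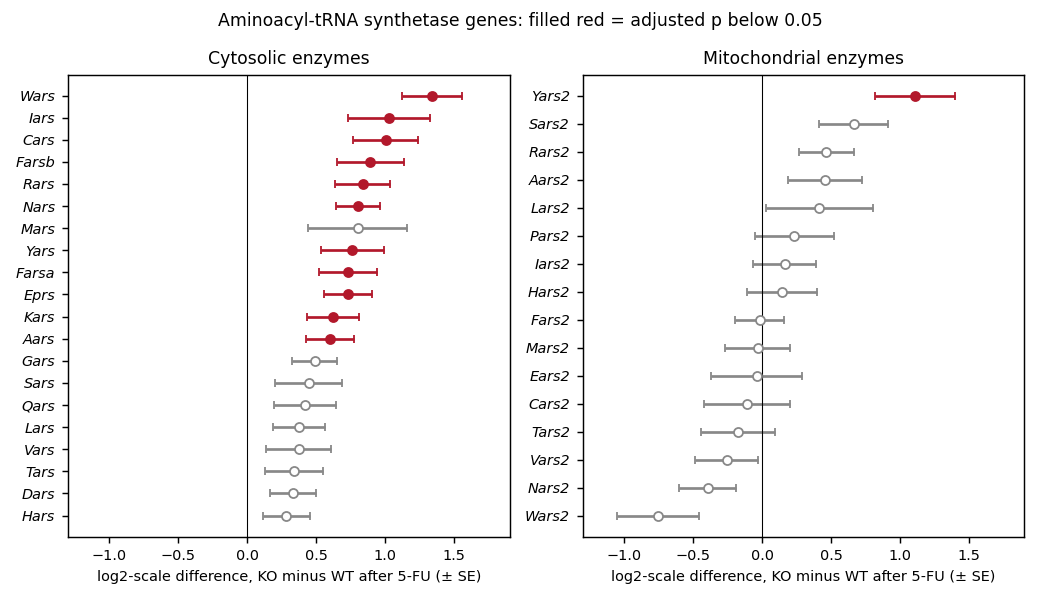
Log2-scale difference between KO and WT libraries after 5-FU for each gene, with its standard error from limma (20 cytosolic genes on the left, 16 mitochondrial on the right; filled red points have a Benjamini-Hochberg adjusted p under 0.05). All 20 cytosolic points lie above 0 and 11 are filled, while the mitochondrial points lie on both sides of 0 and 1 is filled.

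Wars, the tryptophan enzyme, which in human cells is also known as a gene induced by interferon gamma, showed the largest difference of the family. The gene (ENSMUSG00000021266) lies on the minus strand at chr12:108860030-108894174 (GRCm38). Its normalized counts after 5-FU, always listed in the order A2, A3, A4, D4 for WT and A5, A6, A8 for KO, were 434, 336, 328 and 277 (WT) and 1224, 1434 and 1411 (KO). The lowest KO library lay well above the highest WT library. The mean rose 3.95-fold, from 344 ± 65.6 (SD, n = 4) to 1356 ± 115 (n = 3), a log2 difference of 1.34 ± 0.22 (SE; limma adjusted p = 0.000757). In untreated cells Wars measured 414, 1193 and 732 in WT and 1292, 947 and 1243 in KO. Those groups overlapped, with 1 WT library inside the KO range.

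Cars, the cysteine enzyme, lies on the minus strand at chr7:143557230-143600090 and had the lowest level per kilobase of exon of the 20 cytosolic genes. After 5-FU it measured 185, 155, 214 and 108 in WT and 548, 538 and 739 in KO. Every KO library was far above every WT library. Its mean rose 3.68-fold, from 165 ± 45.5 to 608 ± 113 (log2 1.00 ± 0.24, limma adjusted p = 0.0118). Untreated libraries were spread widely, at 309, 376 and 662 in WT and 839, 444 and 325 in KO. All 4 WT libraries after 5-FU lay lowest of all 13 for this gene.

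Nars, the asparagine enzyme, varied little between libraries of a group. After 5-FU it measured 2134, 2247, 2465 and 2205 in WT and 3707, 3942 and 5106 in KO, and every KO library was above every WT library. The rise was 1.88-fold, from 2263 ± 143 to 4252 ± 749 (log2 0.80 ± 0.16, limma adjusted p = 0.0036). Untreated WT libraries held 2533, 2779 and 1785, and untreated KO libraries 2835, 2974 and 3558. These groups did not overlap either, but the difference was not called (log2 0.36, limma adjusted p = 0.491).

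Eprs encodes the bifunctional enzyme for glutamate and proline, a core part of the multisynthetase complex, and lies at chr1:185363044-185428360. The WT libraries after 5-FU held 3234, 3483, 3757 and 2796 normalized counts, and the KO libraries 5003, 5985 and 6259. The mean rose 1.73-fold, from 3317 ± 408 to 5749 ± 661 (log2 0.73 ± 0.17, limma adjusted p = 0.0116). Untreated WT libraries held 3378, 2208 and 2503 and untreated KO libraries 2799.5, 3692 and 4556, so the 3 KO libraries after 5-FU were the highest of all 13.

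Rars, the arginine enzyme of the same complex, measured 3094, 1954, 2238 and 1782 in WT and 3977, 3598 and 5402 in KO after 5-FU. The rise was 1.91-fold, from 2267 ± 583 to 4326 ± 951 (log2 0.84 ± 0.20, limma adjusted p = 0.0126). Groups did not overlap after 5-FU, whereas untreated WT (2364, 3753 and 3187) and untreated KO (2754, 3373 and 4203) did.

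Iars, the isoleucine enzyme, also belongs to the complex and had the next lowest level per kilobase of exon after Cars among the cytosolic genes. It had 303, 375, 319.5 and 268 in 5-FU WT against 876, 1217 and 829 in 5-FU KO, a 3.08-fold rise of the mean from 317 ± 44.5 to 974 ± 212 (log2 1.02 ± 0.30, limma adjusted p = 0.0361). The call was lost under 12 of 23 alternatives, among them limma-voom, TMM scaling and log2(normalized count + 1), with adjusted p up to 0.154 over all 23. The untreated WT libraries differed most among themselves, at 824, 432 and 84.5, and the untreated KO libraries were at 548, 547 and 274. In the annotation, 7.15% of the 50-base stretches of Iars exons also occur in Gm4849, so some reads could belong to either gene.

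Farsa and Farsb encode the alpha and beta subunits of the phenylalanine enzyme, which work as a tetramer of both. After 5-FU Farsa measured 1446, 1376, 1307 and 1039 in WT and 2329, 1954 and 2909 in KO, and Farsb 2048, 2331, 1739 and 1736 in WT and 3824, 3384 and 4721 in KO. For both subunits all 3 KO libraries lay above all 4 WT libraries. The means rose by similar factors, 1.85-fold for Farsa (log2 0.73 ± 0.21, limma adjusted p = 0.0364) and 2.02-fold for Farsb (log2 0.89 ± 0.24, limma adjusted p = 0.0249). In untreated cells Farsa held 892, 1789 and 1297 in WT and 1521, 1174 and 2209.6 in KO, and Farsb 1332, 3060.4 and 3162 in WT and 2155, 3359.6 and 4076 in KO. Untreated WT D1 was the lowest of all 13 libraries for both. Exons of Farsb overlap Sgpp2 on the other strand over 9.47% of their length, and Smart-seq2 reads carry no strand.

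Aars, the alanine enzyme, for which a promoter site is shown above, measured 1633, 1638, 971 and 1425 in WT and 2445, 2096 and 2364 in KO after 5-FU. All KO libraries were higher than all WT libraries, and the mean rose 1.62-fold, from 1417 ± 313 to 2302 ± 182 (log2 0.60 ± 0.17, limma adjusted p = 0.0371). Untreated WT held 1542, 1671 and 1122 and untreated KO 2096, 1743 and 1809. Exons of Aars overlap those of Exosc6, a subunit of the RNA exosome, over 15.12% of their length, and reads there cannot be told apart.

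Yars, the tyrosine enzyme, held 862, 963, 847 and 757 in WT and 1662, 1455 and 1995 in KO after 5-FU. This was a 1.99-fold rise, from 857 ± 84.7 to 1704 ± 273 (log2 0.76 ± 0.23, limma adjusted p = 0.04). The call was lost under 13 of 23 alternatives, among them limma-voom, TMM scaling and log2(normalized count + 1), with adjusted p up to 0.158 over all 23. Its untreated libraries overlapped, at 1354, 1012 and 420.4 in WT and 1169, 1367 and 1004 in KO. Kars, for lysine, was the last cytosolic gene to pass, with WT libraries from 2516 to 3965 and KO libraries from 4588 to 6831 (log2 0.62 ± 0.19, limma adjusted p = 0.0451). The Kars call was also lost under 13 of 23 alternatives, among them quantile scaling and log2(normalized count + 1), with limma adjusted p up to 0.219.

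Yars2, the mitochondrial tyrosine enzyme, was the only mitochondrial member to pass, and 1 WT library stood apart for it. It lies at chr16:16302965-16309640. Its WT libraries after 5-FU held 716, 183, 138 and 175, the first being A2, and its KO libraries held 670.5, 933 and 1147. WT A2 lay within the KO range and the other 3 WT libraries lay far below it. The mean rose 3.03-fold, from 303 ± 276 to 917 ± 239 (log2 1.105 ± 0.29, limma adjusted p = 0.0215). Untreated cells held 307, 368 and 222 in WT and 331, 291 and 684 in KO.

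**Figure D2:**
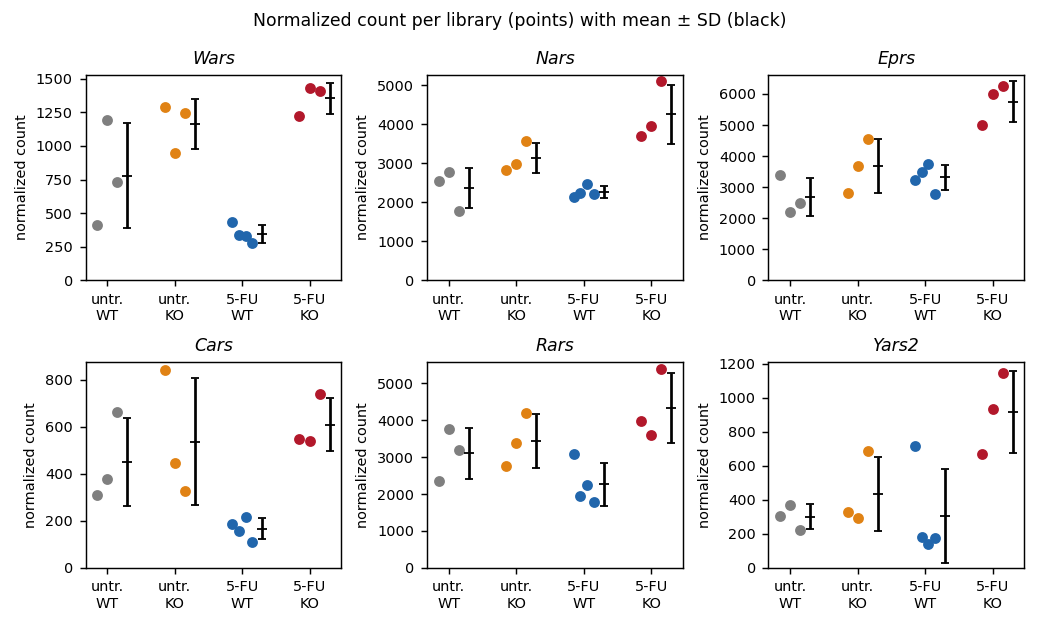
Normalized count in each library (points) with the group mean and SD (black), for 6 of the genes that rose in KO against WT after 5-FU, from the 13 libraries in 4 groups (untr., untreated; each axis starts at 0). The 3 KO libraries after 5-FU lie above the 4 WT libraries after 5-FU in Wars, Nars, Eprs, Cars and Rars, and 1 WT library reaches the KO range in Yars2.

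The other 9 cytosolic genes did not pass, and all 9 had differences above 0. Mars, for methionine, had the largest of these (log2 0.80 ± 0.36, limma adjusted p = 0.176), from 1073, 1018, 378 and 857 (WT) to 1501, 1357 and 2107 (KO). No KO library was as low as any WT library, but the spread within groups was the widest of the cytosolic genes (0.59 on the log2 scale). Gars, for glycine, came nearest to the threshold (log2 0.49 ± 0.16, limma adjusted p = 0.0651) and was called under TMM scaling, where Iars and Yars were not. Sars (serine), Qars (glutamine), Lars (leucine), Vars (valine), Tars (threonine), Dars (aspartate) and Hars (histidine) differed by 0.44, 0.42, 0.38, 0.37, 0.34, 0.33 and 0.28. In 15 of the 20 cytosolic genes, all KO libraries lay above all WT libraries, beside 13.2% of all genes tested.

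Among mitochondrial genes the same was seen in 1, Sars2 for serine (log2 0.66 ± 0.25, limma adjusted p = 0.105), and the opposite in 2, beside 13.8% of all genes. Those 2, a share near that of all genes, were Wars2 and Nars2, the mitochondrial counterparts of the cytosolic genes with the smallest p. Wars2 measured 339, 843, 606 and 597 in WT and 263, 120.3 and 321 in KO (log2 -0.75 ± 0.29, limma adjusted p = 0.117). Nars2 measured 517, 414, 290.1 and 275 in WT and 189.5, 200.5 and 252 in KO (log2 -0.39 ± 0.21, limma adjusted p = 0.249). Neither difference was called, and their 95% intervals ran from -1.38 to -0.13 and from -0.83 to 0.04. In untreated cells both were also lower in KO without a call. Wars2 differed by log2 -0.61 there (limma adjusted p = 0.545) and Nars2 by -0.35 (limma adjusted p = 0.63). Rars2 (0.47), Aars2 (0.46), Lars2 (0.41), Pars2 (0.23), Iars2 (0.16) and Hars2 (0.14) had differences above 0 that were not called. Fars2 (-0.02), Mars2 (-0.03), Ears2 (-0.04), Cars2 (-0.11), Tars2 (-0.17) and Vars2 (-0.26) were below 0 and not called either. Exons of Iars2 overlap Rab3gap2 on the other strand over 24.18% of their length and those of Fars2 overlap Nrn1 over 10.72%, which an unstranded library cannot separate.

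**Figure D3:**
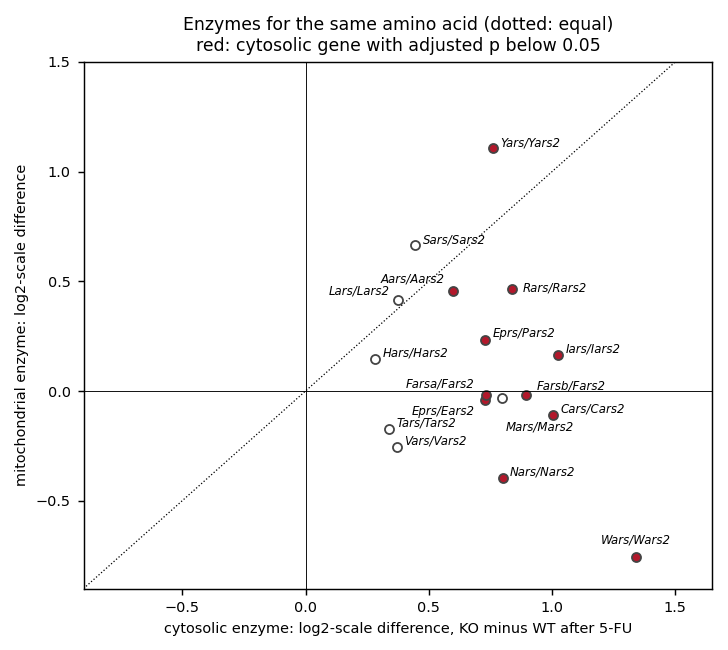
Log2-scale difference between KO and WT libraries after 5-FU for the cytosolic (horizontal) and mitochondrial (vertical) enzyme of the same amino acid, with a dotted line where the values are equal and red points where the cytosolic gene has an adjusted p under 0.05. Eprs is drawn against both Ears2 and Pars2, and Fars2 against both Farsa and Farsb. Most points lie right of 0 and under the dotted line, Yars/Yars2, Sars/Sars2 and Lars/Lars2 lie above it, and Wars/Wars2 lies farthest below.

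Within the cytosolic set, the share that rose was similar across known classes of the enzymes. Of the 8 enzymes of the multisynthetase complex 4 rose (Eprs, Iars, Kars and Rars; median log2 0.67), and of the 12 outside it 7 rose (median 0.66). Class I enzymes, which share a Rossmann-fold catalytic core, counted 5 of 9 (median 0.80), and class II enzymes 5 of 10 (median 0.54), with Eprs, which holds a domain of each class, left aside. Of 12 genes often listed as ATF4 targets 7 rose (Aars, Cars, Eprs, Iars, Nars, Wars and Yars; median 0.75), and of the 8 other cytosolic genes 4 rose (Farsa, Farsb, Kars and Rars; median 0.52). No difference between these subsets was tested. Of the 5 genes with a TGATGNAA site in the promoters printed above, Aars, Iars and Yars rose, and Gars and Tars did not pass.

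The number of calls depended on single libraries, while the direction did not. Without KO A8, which had the highest count of all 13 libraries for 12 of the 20 cytosolic genes, 2 members were called, Wars and Nars. Without KO A6 the count was 4, without KO A5 it was 6, and without WT A4 or without WT D4 it was 5. Leaving out D4 keeps only the 2016 libraries, and Cars, Eprs, Nars, Rars and Wars were then called, with a cytosolic median of 0.63 and all 20 genes above 0. With A3 and D4 averaged into 1 replicate 6 were called (Cars, Eprs, Farsb, Nars, Rars and Wars), and the call of Yars2 was lost.

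Summed over the libraries, the cytosolic set was set apart most clearly in KO after 5-FU. The median deviation of the 20 cytosolic genes from their own means over all 13 libraries was 0.34, 0.30 and 0.59 on the log2 scale in the KO libraries and -0.08, -0.14, -0.41 and -0.33 in the WT libraries after 5-FU, listed as before. Untreated KO libraries were at 0.14, 0.13 and 0.04 and untreated WT libraries at -0.26, 0.01 and -0.11. Each KO library was thus above each WT library of its treatment. For the 16 mitochondrial genes the libraries after 5-FU lay between -0.02 and 0.10 in both genotypes, and the lowest values were those of untreated WT D1 (-0.30) and D3 (-0.20). KO after 5-FU had the highest mean of the 4 groups for 17 of the 20 cytosolic genes, and untreated KO had it for Hars, Kars and Qars. WT after 5-FU had the lowest mean for 16 of the 20, and untreated WT for Eprs, Lars, Sars and Tars.

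**Figure D4:**
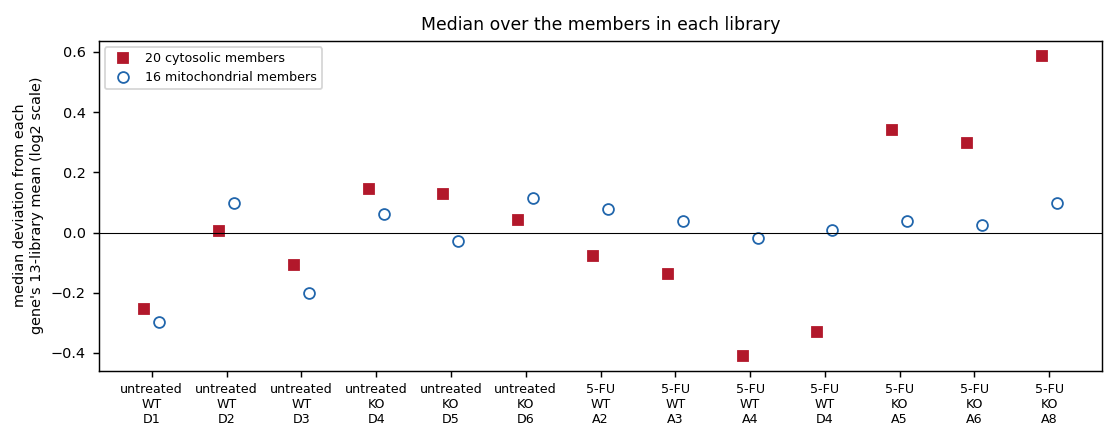
Median over the 20 cytosolic (red squares) and 16 mitochondrial (blue circles) genes of the deviation from each gene's mean over the 13 libraries (vertical axis, log2 scale), for each library (horizontal axis). The squares of the 3 KO libraries after 5-FU lie between 0.30 and 0.59, above those of every other library, and the circles of the 7 libraries after 5-FU lie between -0.02 and 0.10.

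Other gene groups differed between the same libraries. The summed normalized count of 10 genes of cycling cells was 53224 to 57191 in KO and 27630 to 34589 in WT after 5-FU, and 6 of the 10 rose. In untreated cells it was 32422 to 38241 in KO and 17055 to 26597 in WT. Megakaryocyte genes, 7 of 8 listed being in the table, summed to 4166 to 7150 in KO and 29442 to 51840 in WT after 5-FU (6 of 7 fell), and erythroid genes to 1242 to 1487 and 4609 to 6548 (4 of 7 tested fell). Neutrophil genes summed to 2250 to 2404 and 4101 to 5887 (4 of 8 fell), with Lcn2 and Mpo at 0 in all 3 KO libraries, where the erythroid gene Car1 was at 0 as well. These zeros were not limited to that group. Mpo was also at 0 in WT A3 and D4 after 5-FU. In untreated cells Lcn2 was at 0 in every WT library, and Car1 in WT D2 and D3 and in every KO library. In bulk libraries fewer cells of a type and less RNA per cell cannot be told apart, and the part of these differences in the synthetase results was not tested.

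In untreated cells no synthetase gene was called between KO and WT (limma; 0.0311% of all genes tested were called). At an unadjusted p under 0.05, 8 members were higher in KO and 0 lower, beside 5.37% and 4.68% of all genes, and limma-voom called 0. All 20 cytosolic differences lay above 0 here too, beside 50.4% of all genes, from 0.01 to 0.49 with a median of 0.27, and 19 of 20 did in limma-voom. Without untreated WT D1, 14 of 20 lay above 0 and the median was 0.16. The 16 mitochondrial differences had a median of 0.13, with 9 above 0, and over all genes the median was 0.00. Hars, Nars and Aars were higher in all KO than in all WT libraries, as were 5.88% of all genes. Nars2 was the reverse, lower in all KO than in all WT libraries, and was not called (limma adjusted p = 0.63). The share of all genes that were lower in this way is not given here, so nothing is read from this 1 gene. Hars, for histidine, had the smallest p. It measured 1274, 1844 and 1893 in untreated WT and 2139, 2599 and 2670 in untreated KO, so the groups did not overlap, a 1.48-fold difference of the means (log2 0.49 ± 0.18, limma adjusted p = 0.367). After 5-FU the histidine gene overlapped between genotypes, at 1992, 1788, 1231 and 1558 in WT and 1838, 2074 and 2258 in KO. Hars and its mitochondrial neighbour Hars2 lie head to head and share 195 exon bases. Aars2, the lowest member, had 3.59, 1.16 and 6.34 in untreated WT and 128, 216 and 0 in untreated KO.

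In the response of WT cells to 5-FU, members were called at a share near that of all genes. The lack of a call does not show an unchanged level. Of the 36 genes 1 fell, Pars2, the mitochondrial proline enzyme, beside 2.96% of all genes that fell, and 0 rose, beside 3.72% (limma). At an unadjusted p under 0.05, 3 were higher and 5 lower, beside 11.5% and 10.8% of all genes, and limma-voom called Tars2 higher and Pars2 lower. Untreated WT libraries had 434, 552 and 394 for Pars2, and those after 5-FU had 30.1, 43.5, 380.4 and 36.5. Library A4 lay just under the untreated libraries and the other 3 were far below them. The mean fell 3.75-fold, from 460.0 ± 82.2 to 123 ± 172 (log2 -1.08 ± 0.29, limma adjusted p = 0.0305). The call was lost with A3 and D4 averaged (limma adjusted p = 0.0955), without A3 (limma adjusted p = 0.0914), without D4 (limma adjusted p = 0.103), without A2 or any untreated WT library, and with a term for the year of acquisition. In KO, Pars2 was at 476, 199 and 280.3 untreated and 114, 172 and 126 after 5-FU, without overlap and without a call (log2 -0.52, limma adjusted p = 0.368). Its lowest value, 30.1, lay above the floor of 3 reads, which corresponded to normalized counts of 0.979 to 4.35 across libraries.

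The cytosolic median in the WT response was -0.04 and the mitochondrial one 0.16, with 16 of the 20 cytosolic genes below 0 and 49.7% of all genes above it. Cars had the lowest cytosolic value (log2 -0.70, limma adjusted p = 0.0869), followed by Wars (-0.68, limma adjusted p = 0.0732). Wars was called lower without untreated WT D1 (log2 -0.94, limma adjusted p = 0.012). In KO cells 5-FU changed no member past the threshold (limma; 5.92% of all genes were called), 6 were higher and 0 lower at an unadjusted p under 0.05, beside 9.61% and 10.4% of all genes, and limma-voom called 0. The cytosolic median there was 0.30, with 17 of 20 above 0, beside 48.7% of all genes, and the mitochondrial one -0.01. With a term for the year of acquisition the cytosolic median was 0.17, with 13 of 20 above 0 and 0 past an unadjusted p of 0.05. Eprs came nearest (log2 0.61 ± 0.18, limma adjusted p = 0.0607), and it passed without untreated WT D1 (limma adjusted p = 0.0379) and without untreated KO D6 (limma adjusted p = 0.0438). The 2 treatment comparisons use different libraries but share the confounding of treatment with year of acquisition, 2015 for the untreated and 2016 for the 5-FU libraries other than WT D4, so that treatment and year cannot be told apart.

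The test of whether the genotype difference itself changed with 5-FU called no member (limma interaction; 2.84% of all genes were called). At an unadjusted p under 0.05, Cars, Rars and Wars were higher and 0 lower, beside 7.79% and 8.86% of all genes, and limma-voom called 0. Wars had the smallest p (log2 0.86 ± 0.32, limma adjusted p = 0.167) and Cars the largest value (log2 0.86 ± 0.35, limma adjusted p = 0.207). The cytosolic median of the interaction was 0.42, with Hars and Lars below 0 and the other 18 above, beside 49.3% of all genes, and the mitochondrial median was -0.08. Without untreated WT D1, Wars passed (log2 1.12, limma adjusted p = 0.0454), and without untreated WT D3, Iars did (log2 1.31, limma adjusted p = 0.0499). The larger number of calls between genotypes after 5-FU than before it is therefore not shown, gene by gene, to be a change of the genotype difference.

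Per kilobase of exon, with the exons of all annotated transcripts of a gene merged, the members spanned a wide range of levels. The order depends on these merged lengths as well as on the counts. Eprs had 18102 such bases and Gars 3119, with mean normalized counts of 3820 and 3667 over all libraries. Dars, for aspartate, was the highest, with a mean normalized count of 1598 ± 291 per kilobase over the 13 libraries, and the mitochondrial leucine gene Lars2 was next at 1356 ± 844. Gars, Farsb, Kars and Rars followed at 1176, 1084, 1045 and 993, and neighbours in this order differed by less than their SD. The lowest were Aars2 (11.3 ± 14.0), Vars2 (15.3 ± 10.003) and Ears2 (24.9 ± 18.1). The median over the cytosolic genes was 331 and over the mitochondrial genes 90.1, and Cars (63.6) was the only cytosolic gene below 100 per kilobase. Lars2 differed most between libraries of a group, with a pooled SD of 0.67 on the log2 scale, and ran from 6357 in untreated WT D3 to 36508 in KO A5 after 5-FU. Its 4 WT libraries after 5-FU held 30322, 11507, 9354 and 16499, its 3 KO libraries 36508, 23714 and 9803, and its differences were not called, except that the rise after 5-FU in KO was called without KO A8.

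**Figure D5:**
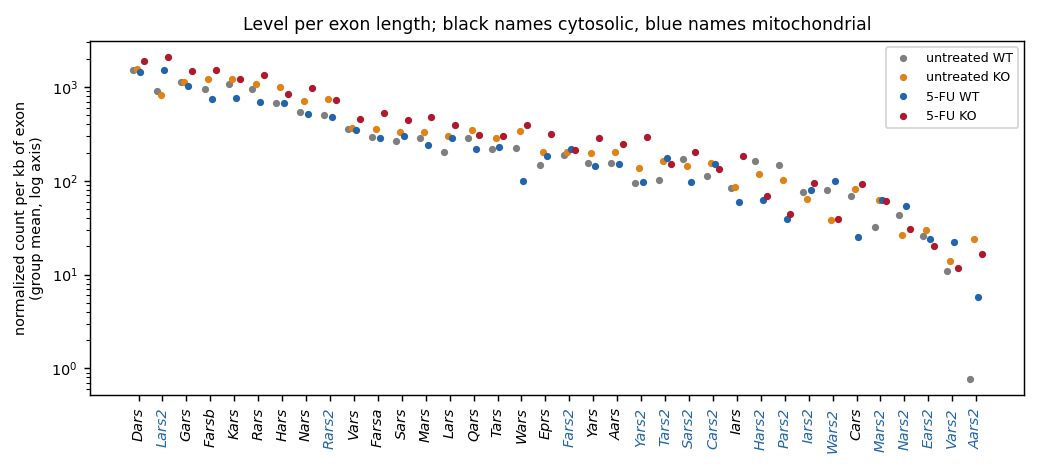
Group mean of the normalized count per kilobase of exon (vertical log axis) for each of the 36 genes, ordered by the mean over all 13 libraries, with 1 point for each of the 4 groups and cytosolic names in black and mitochondrial names in blue. Dars and Lars2 are at the top, Vars2 and Aars2 at the bottom, and the red points of KO after 5-FU are the highest for 17 of the 20 cytosolic genes.

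Genes that work beside the synthetases moved less uniformly in KO against WT after 5-FU. Of the 3 scaffold genes of the multisynthetase complex, Eef1e1 rose 1.58-fold, from 1406 ± 406 to 2222 ± 106 (limma adjusted p = 0.0469). Aimp2 (log2 0.47) and Aimp1 (log2 -0.19) did not pass. Of 15 genes for charging partners and editing 1 rose, a share near the 5.36% of all genes. It was Aarsd1, which encodes an enzyme that removes wrongly attached amino acids from alanine tRNA (1.86-fold, limma adjusted p = 0.0263). Without WT D4, without KO A8, or with A3 and D4 averaged, 0 genes of either group were called.

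Of 24 tested genes for tRNA processing and export 4 rose and 0 fell, also in limma-voom, beside 5.36% and 5.5% of all genes. At an unadjusted p under 0.05, 6 were higher and 1 lower. Pop5, Rpp30 and Rpp40 are subunits of RNase P, which trims the front end of precursor tRNAs, and Ddx1 is a helicase of the tRNA ligase complex. Rpp40 measured 290.5, 377, 332 and 359 in WT and 689, 860 and 848 in KO (2.35-fold, limma adjusted p = 0.00842). Rpp30 measured 1069, 776, 1539 and 694 in WT and 2423, 1988 and 2732 in KO (2.33-fold, limma adjusted p = 0.00836). For both, all KO libraries were above all WT libraries, and both were called without WT D4, without KO A8 and with A3 and D4 averaged, where Pop5 and Ddx1 were not. Pop5 rose 2.12-fold (limma adjusted p = 0.0174) and Ddx1 1.85-fold (limma adjusted p = 0.029). Of 19 genes for RNA polymerase III and its factors, which transcribe tRNA genes, 0 were called (limma; 1 higher and 1 lower at an unadjusted p under 0.05, and 0 in limma-voom).

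Members of the list of eIF2 alpha kinases and ATF4 genes went both ways in that comparison. Asns, the asparagine synthetase, a much used ATF4 target, measured 603, 1217, 2454 and 1019 in WT and 2251, 2556 and 3504 in KO (2.09-fold, limma adjusted p = 0.0223), and the groups overlapped through WT A4. Its call was lost without WT D4, without KO A8 and with A3 and D4 averaged, while those of Ddit3 and Ppp1r15a held. Ddit3, the stress transcription factor CHOP, was the reverse, with 751, 1184, 821 and 1209.5 in WT and 161, 105 and 254 in KO, and its mean was 5.72-fold lower (log2 -1.47, limma adjusted p = 0.00022). Ppp1r15a, which directs dephosphorylation of eIF2 alpha, fell as well (844 ± 88.9 to 183 ± 48.3, log2 -1.27, limma adjusted p = 0.00999), though not in limma-voom. Atf4 itself measured 1941 ± 414 and 2353 ± 358 and did not pass (log2 0.24, limma adjusted p = 0.475). Ddit3 was also called in the interaction (log2 -1.48, limma adjusted p = 0.0151), though not without both libraries of the other flowcell, and Rpp40 was called higher there in limma-voom and under TMM scaling. Exons of Ddit3 share 68 bases with those of Mars on the other strand, 1.99% of the exon length of Mars.

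In the 5-FU responses, Trib3, a pseudokinase induced by ATF4 and CHOP, fell in both genotypes. Both calls were lost with the year term, the KO call also in limma-voom and under TMM scaling, and the WT call without both libraries of the other flowcell. It went from 248.8, 167 and 519.7 to 97.2, 0, 4.75 and 0.664 in WT (log2 -1.28, limma adjusted p = 0.00914), and from 293, 579.7 and 228 to 41.7, 1.18 and 36.4 in KO (log2 -1.31, limma adjusted p = 0.0129). Eif2ak2, the double-stranded RNA kinase PKR, rose in both (2.59-fold in WT, limma adjusted p = 0.0472, and 2.74-fold in KO, limma adjusted p = 0.0485). Both calls were lost with A3 and D4 averaged, with the year term, without WT D4, without KO A8 and without both libraries of the other flowcell, the KO call also in limma-voom and the WT call under TMM scaling. Hsd17b10, a subunit of mitochondrial RNase P, fell in WT (log2 -0.68, limma adjusted p = 0.0117). In KO, Rpp30 rose 2.08-fold (limma adjusted p = 0.0448), Ddit3 fell 3.56-fold (limma adjusted p = 0.0112), and Maf1, the repressor of RNA polymerase III, fell from 3866 ± 906 to 1652 ± 380.3 (log2 -1.06, limma adjusted p = 0.0399). For Maf1 the groups did not overlap, with 2853, 4602 and 4142 before and 1213, 1889 and 1854 after 5-FU. The Maf1 call was lost in limma-voom, under TMM scaling, with A3 and D4 averaged, with the year term, without WT D4 and without KO A8. In limma-voom and with the year term, Rpp30 and Ddit3 were not called in KO either, and Rpp30 was also lost under TMM scaling and without KO A8. The call of Hsd17b10 in WT was lost with the year term.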

How the data were processed

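The series holds 13 libraries, and 1 table with a column for each was used. Its values were deposited by the authors on a log2 scale, variance-stabilized with DESeq2 per the submitters' processing notes, which also name Trimmomatic, Bowtie 1.1.1 and mm10. Which tool, annotation and strand setting were used for counting is not stated there. The transformation was inverted (value of 7.6484 at 0), giving size factors and reads that were whole within 0.1 for 100% of values. Symbols came from GENCODE M21, 13054 matched.

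Differences were tested on the deposited log2 values with limma 3.58.1 (R 4.3.3), which was checked on simulated data: 1 mean per group over all 13 libraries, mean-variance trend (residual df 9, prior df 7.67), Benjamini-Hochberg at 0.05 over 12846 genes in each of 5 comparisons. With a minimum of 50, 11583 genes were tested. Alternatives were log2(normalized count + 1), other filters, quantile and TMM scaling, limma-voom on recovered reads, A3 and D4 averaged, only the groups compared, a term for acquisition year, each library left out in turn, and, added after seeing the data, both libraries read on the other flowcell left out. Exon lengths and overlaps came from GENCODE M21 and promoters from RefSeq. Figures were drawn with matplotlib 3.10.9, and other steps ran in Python 3.11.15 with pandas 2.3.3, numpy 2.4.6 and scipy 1.17.1.

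Members, lists and tests were chosen with earlier results of these data known. Values in every library are given for up to 12 members with the smallest p among those called in any comparison, for the member with the smallest p where none was called, and for Map2k1; other values were chosen after they were seen. Floors of 3 reads cover counting error only. Some items are withheld and not reported here.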

Additional observations from a re-analysis of the deposited data

Results flagged for a closer look

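Each member was examined in WT after 5-FU, the 1 group of 4 libraries, for a library whose gap to its nearest neighbour, as a share of the range of the group, exceeded Dixon's 95% value. Chance gives about 1 in 20 such cases, and 36 were examined. Pars2 stood out with a normalized count of 380 in library A4, beside 30.1 to 43.5 in the other 3 (ratio 0.914). Yars2 stood out with 716 in library A2, beside 138 to 183 in the other 3 (ratio 0.869).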

How the results depend on the processing

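In KO against WT after 5-FU 12 members were called. The count was 6 with A3 and D4 averaged, 5 with the year term, which rests on D4 alone among the 5-FU libraries, 7 without both libraries of the other flowcell, and 2 to 13 when 1 library was left out. In the WT response the count of 1 became 2 in limma-voom and 0 with the pair averaged, with only the groups compared or with the year term (0 to 2 leaving out 1 library). In the KO response the count of 0 became 1 without both libraries of the other flowcell (0 to 1 leaving out 1 library), and in the interaction it was 0 to 1 leaving out 1 library. In untreated cells it was 0 under every alternative. The causes were not tested. Wars and Nars were called under all 23 alternatives, Cars and Rars under all but the one without KO A8, and 0 of the 12 differences changed sign. The call of Eprs was lost under 3 alternatives, that of Farsb under 6 and that of Yars2 under 8. Aars and Farsa lost theirs under 9 each, Iars under 12, and Kars and Yars under 13 each. The mitochondrial median after 5-FU moved from 0.06 to 0.22 with log2(normalized count + 1), 0.25 with TMM and 0.29 with limma-voom, and the cytosolic one stayed between 0.54 and 0.82. Over all genes, 1395 were called after 5-FU in KO against WT, and 913 with the pair averaged. No paired analysis was possible because groups set against each other in a pairwise comparison share no library number. D4 occurs in untreated KO and in 5-FU WT, which were not compared with each other.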
